A study of Mus musculus with 37 samples.

Results

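The genes examined were 9 deubiquitinases other than BAP1 that remove ubiquitin from histone H2A or H2B: Usp16, Mysm1, Usp21, Usp3, Usp12, Usp46, Usp22, Usp44 and Usp7. They were identified in the tables by gene symbol and are 9 of the 55401 genes in each of the 2 deposited expression tables. The study deleted Bap1, the catalytic subunit of the Polycomb repressive deubiquitinase complex, in mouse oocytes, and the question put to these genes was whether other enzymes acting on the same substrates were higher where Bap1 was lost. All females were homozygous for a floxed Bap1 allele (Bap1flox/flox). Knockout females also carried Gdf9-iCre, a Cre recombinase driven by the promoter of the oocyte growth factor Gdf9, so that deletion took place in oocytes and not in the surrounding follicle cells, and control females lacked Cre. Total RNA was sequenced from fully grown oocytes (FGO), ovulated metaphase II eggs (MII), late 1-cell embryos (L1C), early 2-cell embryos (E2C) and late 2-cell embryos (L2C), with 3 knockout and 2 control libraries per stage, or 3 control libraries at E2C. Embryos came from these eggs and wild-type sperm, of B6 males for the 1-cell and 2-cell stages and of PWK males for the poly(A) RNA libraries of embryonic day 6.5. At that day 2 libraries per genotype came from the epiblast (EPI) and 2 per genotype from the visceral endoderm (VE), while the extraembryonic ectoderm (EXE) was represented by 2 knockout libraries and a single control. The embryos called knockout were thus maternal knockouts that received an intact Bap1 allele from the sperm. The labels give neither the age of the animals nor the number of cells per library, and do not say whether replicates came from separate animals, so p-values measure only the spread between these libraries.

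Monoubiquitin on histone H2A is written mainly by Polycomb repressive complex 1 and accompanies gene repression, whereas monoubiquitin on H2B is written by the RNF20-RNF40 ligase and accompanies transcription. BAP1 and its ASXL partners remove the mark from H2A, and the 9 enzymes studied here can take ubiquitin off the same histones in other settings. The oocyte stores large amounts of maternal mRNA, transcription is silent through meiotic maturation, and the embryonic genome is activated in force during the 2-cell stage while maternal mRNA is cleared.

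Upstream sequence is shown for 4 genes that followed different courses: Usp3 and Usp46, whose mRNA fell through the 2-cell stage, Usp12, whose mRNA rose there, and Usp21, which was called at no transition between stages. Each run covers the 200 bases from 250 to 51 before the RefSeq start on GRCm38.p6, 5′ to 3′ on the gene's strand, which is the minus strand in all 4, and holds no annotated exon. Usp3 has chr9:66593166-66593365, Usp21 has chr1:171288012-171288211, Usp12 has chr5:146795007-146795206 and Usp46 has chr5:74068462-74068661. Capitals mark matches, on either strand, to CCAAT, the letters read by the factor NF-Y, and to GGGCGG, the GC box read by SP factors, and adjoining GC boxes can overlap.
Usp3: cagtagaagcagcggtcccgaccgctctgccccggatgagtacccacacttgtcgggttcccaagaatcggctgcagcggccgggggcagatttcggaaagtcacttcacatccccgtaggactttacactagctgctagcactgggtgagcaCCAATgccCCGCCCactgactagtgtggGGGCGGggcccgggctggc
Usp21: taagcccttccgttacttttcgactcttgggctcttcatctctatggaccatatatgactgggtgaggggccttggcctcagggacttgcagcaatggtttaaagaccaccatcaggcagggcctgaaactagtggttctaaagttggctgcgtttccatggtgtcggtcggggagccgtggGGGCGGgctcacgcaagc
Usp12: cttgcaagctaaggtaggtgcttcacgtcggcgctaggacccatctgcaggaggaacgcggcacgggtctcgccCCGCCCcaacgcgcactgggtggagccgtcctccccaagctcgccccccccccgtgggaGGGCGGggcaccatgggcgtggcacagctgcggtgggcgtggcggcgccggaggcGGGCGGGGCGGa
Usp46: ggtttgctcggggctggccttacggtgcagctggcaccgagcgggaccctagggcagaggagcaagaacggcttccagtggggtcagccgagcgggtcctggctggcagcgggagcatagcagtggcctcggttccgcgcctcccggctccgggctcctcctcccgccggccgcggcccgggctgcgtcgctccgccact
The Usp12 window held 4 GC boxes, the Usp3 window 2 GC boxes and 1 CCAAT, and the Usp21 window 1 GC box. The Usp46 window held neither motif, although its GC content of 73.5% was close to the 74.5% of Usp12. Over 27025 RefSeq promoters, windows of the same length and position held GGGCGG in 24.5% and CCAAT in 28.9%. GGATTA, letters read by OTX and OBOX homeobox factors, was in 5.38% of all windows and AAGGTCA, read by the orphan nuclear receptors NR5A2 and ESRRB, in 3.34%, and neither was in the 4 windows shown. Of the 9 genes, 7 had an entry in the promoter table and 4 of those had a window free of annotated exons.

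Values are FPKM, fragments scaled by transcript length and library size, which can be compared between genes because they are per length, and which do not keep the number of reads, so the depth behind each value is unknown. The FPKM of all genes summed to 300668 at the lowest and 430784 at the highest in total RNA, and poly(A) libraries ranged from 593705 to 704522. Most marker lists fitted the labelled cells. All 7 oocyte markers (zona pellucida genes, Gdf9, Bmp15, Nlrp5 and Ooep) were above 1 FPKM in every library of the 5 early stages, and the epiblast, visceral endoderm and extraembryonic ectoderm lists were each highest in their own lineage. In extraembryonic ectoderm, epiblast markers still summed to 497 to 603 FPKM, beside 425 to 533 FPKM for its own list. The library at 497 FPKM, knockout replicate 1, had 3 of the 6 epiblast genes at 1 FPKM or more. Knockout replicate 2 and the control had all 6. How much of these sums was epiblast RNA was not tested. The mesoderm genes T, Mesp1 and Mixl1 summed to 13.6 to 35.1 FPKM in visceral endoderm. Of these 3 genes, 1 reached 1 FPKM in each knockout library there, and 1 or 2 did in the controls. In epiblast the sum of these genes ranged from 0.316 to 13.1 FPKM, highest in control replicate 2. Of 10 markers of cumulus and granulosa cells, 2 or 3 reached 1 FPKM in the early libraries, with Amh at up to 0.320 FPKM, Fshr at up to 0.170 FPKM and Foxl2 at up to 0.665 FPKM. The summed level of those 10 was higher in controls than in knockouts at all 5 early stages, without overlap. Because only 2 or 3 of the 10 reached 1 FPKM, this sum is not a measure of follicle cells as a whole. At FGO it was 23.6 to 25.9 FPKM in controls against 14.6 to 16.2 FPKM in knockouts. The sums were 19.6 to 21.96 against 11.3 to 12.01 FPKM at E2C, and 46.2 to 49.4 against 22.6 to 33.7 FPKM at L2C. Cyp19a1, the aromatase gene of granulosa cells, made up a minor part of the FGO sum. It was at 6.72 and 5.16 FPKM in controls there and at 1.52 to 1.87 FPKM in knockouts. The part of these differences in the results was not tested.

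Bap1 (chromosome 14, 31251450 to 31259944) followed its labels before day 6.5. It was at 16.3 to 29.9 FPKM in the control libraries of the 5 early stages and at 3.76 to 11.7 FPKM in the knockout libraries, and no knockout library reached the lowest control library. Knockout libraries held 19.4% of the control mean at FGO, 16.2% at MII, 20.6% at L1C, 26.4% at E2C and 46.3% at L2C. At day 6.5, with a paternal allele present, Bap1 was at 14.0 to 22.6 FPKM in control and at 18.3 to 33.8 FPKM in knockout libraries.

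The store of deubiquitinase mRNA in the fully grown oocyte was dominated by 2 of the 9 genes. Usp7 was at 129 and 134 FPKM and Usp46 at 107 and 109 FPKM in control oocytes, and together they made up 68.9% of the summed level of the 9 genes. Usp16 followed at 43.8 and 45.2 FPKM, Usp3 at 21.9 and 32.7 FPKM and Usp21 at 17.2 and 18.0 FPKM. The others were lower: Mysm1 was at 10.9 and 12.8 FPKM, Usp22 at 3.95 and 3.97 FPKM and Usp12 at 2.43 and 2.75 FPKM. Usp44 was near the bottom of detection, at 0.229 and 0.164 FPKM, and did not exceed 0.563 FPKM in any early library, so it was not among the 15184 genes tested at these stages and 8 of the 9 genes were. For comparison, Bap1 itself was at 16.3 and 29.2 FPKM in control oocytes, nearest to Usp21 and Usp3.

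**Figure D1:**
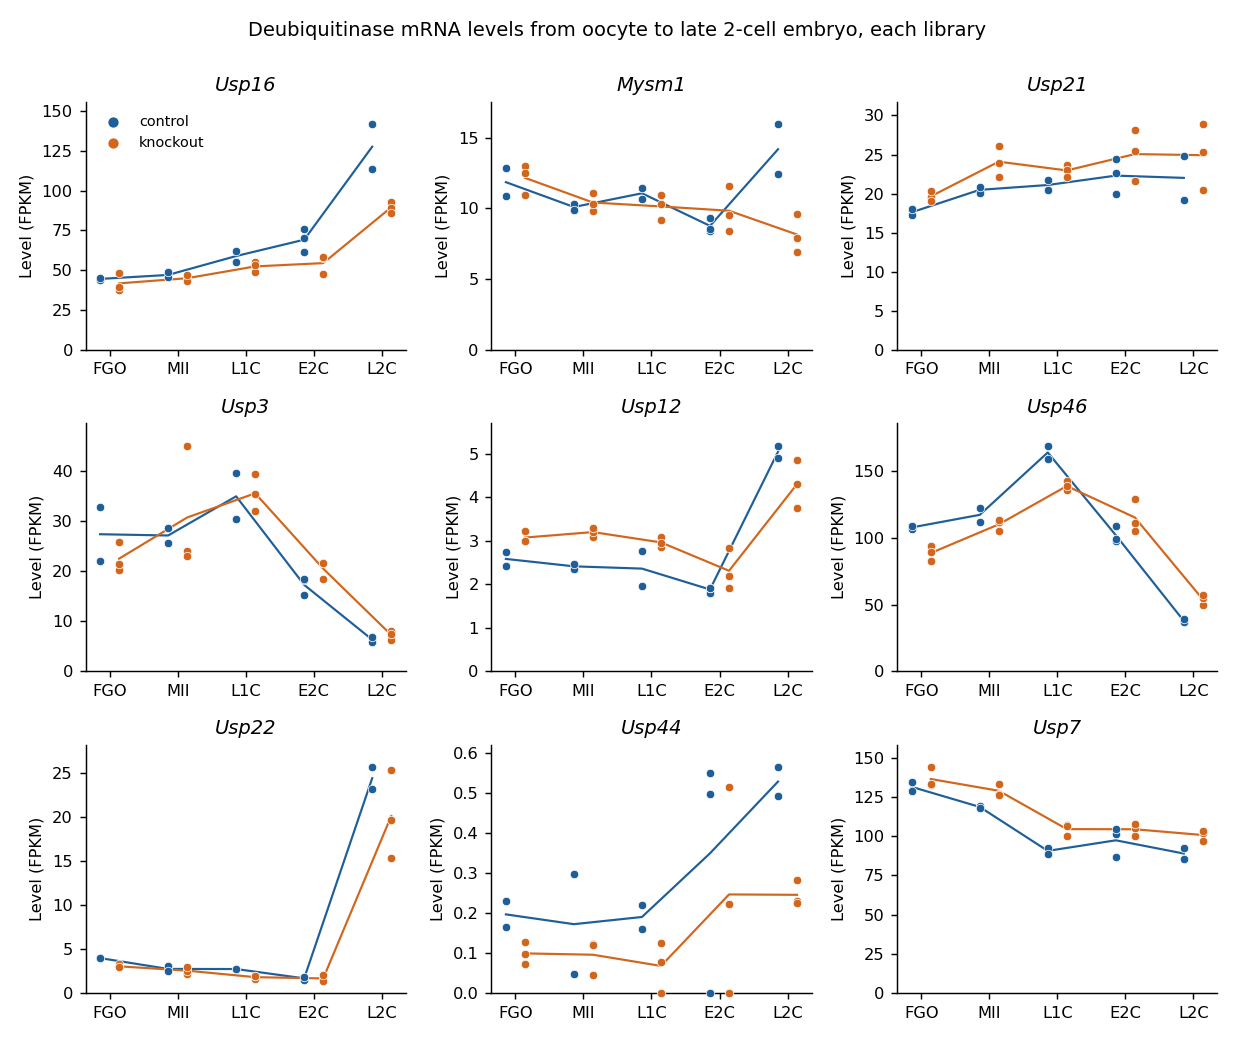
Level in FPKM of each of the 9 genes (1 panel each, linear axis from 0) by stage. Points are libraries, lines join group means, controls are blue and knockouts orange. Usp3 and Usp46 fell after L1C, while Usp22, Usp12 and Usp16 were highest at L2C. At L2C the genotypes did not overlap for Usp16, Mysm1, Usp12, Usp44, Usp46 and Usp7. Knockout libraries there lay wholly below the controls for 27.7% of all genes tested and wholly above for 29.1%.

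Levels in control embryos were compared between consecutive stages with limma on log2(FPKM + 1), fitted over all 26 total RNA libraries, with p-values adjusted by Benjamini-Hochberg over all genes tested in a contrast and a threshold of 0.05. From FGO to MII, 0 of the 8 genes changed (3 passed 0.05 before adjustment), where 5.39% of all genes tested did. Usp22 was nearest, at -0.42 (adjusted p = 0.0552), and was called without any 1 of knockout FGO replicate 1, knockout MII replicate 3 and knockout L2C replicates 1 and 2 (adjusted p between 0.0343 and 0.0392). From MII to L1C 3 of 8 changed, beside 25.4% of all genes. From L1C to E2C 3 of 8 fell, where 29.1% of all genes fell and 47.2% changed in either direction. From E2C to L2C 6 of 8 changed, 4 rising and 2 falling, where 51.7% of all genes changed, 29.2% rising and 22.5% falling.

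Usp46 and Usp3 showed a maternal course. Usp46, a deubiquitinase that depends on the WD-repeat proteins WDR48 and WDR20 for activity, was at 123 and 112 FPKM in control MII eggs, 159 and 169 FPKM at L1C, 98.0, 99.1 and 109 FPKM at E2C, and 36.6 and 38.9 FPKM at L2C. The L1C libraries were above all others and the L2C libraries below all others, with no overlap between consecutive stages from MII on. In log2(FPKM + 1) it rose by 0.48 (95% confidence interval 0.34 to 0.62, adjusted p = 1.36e-05) from MII to L1C, fell by 0.68 (adjusted p = 2.96e-06) from L1C to E2C and fell by 1.41 (adjusted p = 1.36e-09) from E2C to L2C. Usp3, an H2A and H2B deubiquitinase known from the DNA damage response and S phase, was at 39.5 and 30.3 FPKM in control L1C embryos, 18.1, 18.3 and 15.3 FPKM at E2C, and 5.86 and 6.78 FPKM at L2C. It fell by 0.97 (adjusted p = 0.0145) from L1C to E2C and by 1.32 (adjusted p = 0.00609) from E2C to L2C. With no filter on low values these adjusted p-values were 0.0531 and 0.0631, and the first was 0.0619 without control E2C replicate 3 and 0.0864 without control L1C replicate 1. Over the 10 group means of the early stages, the Pearson correlation of Usp3 with Usp46 was 0.95.

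In controls Usp22, Usp12 and Usp16 were highest at L2C, and whether their RNA there was stored or newly made was not tested. Usp22, the catalytic subunit of the deubiquitinase module of the SAGA coactivator, was at 3.01 and 2.44 FPKM in control MII eggs, 2.699 and 2.726 FPKM at L1C, 1.58, 1.52 and 1.86 FPKM at E2C, and 25.6 and 23.2 FPKM at L2C. Its mean was 14.8-fold higher in control L2C than in control E2C embryos, a gain of 3.26 in log2(FPKM + 1) (interval 2.82 to 3.70, adjusted p = 8.47e-11), the widest range of any of the 8 genes. From L1C to E2C it fell by 0.49 (adjusted p = 0.0262), and that call was lost without any 1 of control L1C replicates 1 and 2 and control E2C replicates 1 and 2 (adjusted p between 0.0603 and 0.0975) and with median centring (0.138). Usp12, the close relative of Usp46 that shares the same WD-repeat cofactors, was at 1.81, 1.92 and 1.92 FPKM in control E2C embryos and at 5.18 and 4.92 FPKM at L2C, a rise of 1.07 (adjusted p = 2.88e-05). From L1C to E2C its estimate was -0.21 (adjusted p = 0.246), and -0.38 (adjusted p = 0.0434) without control L1C replicate 2. So the 2 paralogues moved in opposite directions between E2C and L2C, Usp46 downward and Usp12 upward, and Usp46 was still at 37.8 FPKM on average against 5.05 FPKM for Usp12 at L2C.

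Usp16, an H2A deubiquitinase known from mitosis and stem cell gene activation, rose over the series. In controls it was at 45.4 and 48.6 FPKM at MII, 62.3 and 55.4 FPKM at L1C, 75.8, 70.4 and 61.3 FPKM at E2C, and 142 and 114 FPKM at L2C. Each library at L2C was above every earlier library. It rose by 0.32 (adjusted p = 0.0148) from MII to L1C and by 0.87 (adjusted p = 7.46e-05) from E2C to L2C, and had the highest mean of the 9 genes in control L2C embryos. The first of these was not called without control L1C replicate 1 (adjusted p = 0.190), without control MII replicate 1 (0.105) or without stage weights (0.124).

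Usp7, Usp21 and Mysm1 varied least. Usp7, a deubiquitinase with many substrates that include MDM2, p53 and Polycomb subunits, was at 119 and 118 FPKM in control MII eggs and 92.6 and 88.6 FPKM at L1C, where it fell by 0.39 (adjusted p = 2.84e-05), and later control libraries lay between 85.3 and 104 FPKM. Usp21, an H2A deubiquitinase linked to transcription initiation, spanned 17.6 to 25.1 FPKM over the 10 group means of both genotypes, a 1.42-fold range, and was called at no transition. Mysm1, a JAMM-type metalloprotease that acts on H2A and is needed for blood formation, was at 9.36, 8.38 and 8.57 FPKM in control E2C and 12.4 and 15.9 FPKM in control L2C embryos, a rise of 0.63 (adjusted p = 0.00536) that was not called without control L2C replicate 2 (adjusted p = 0.0938) or with median centring (0.0712).

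The knockout was compared with control within each stage in the same fit. Few of the 8 tested genes changed, and their share was near or below that of all genes at every stage but L1C, where it was higher. At FGO 1 of 8 changed, beside 13.9% of all genes tested. At MII 1 of 8 changed, beside 16.8%. At L1C 3 of 8 changed, beside 17.6%. At E2C 0 of 8 changed in limma (1 had an unadjusted p under 0.05), beside 13.5%. At L2C 3 of 8 changed, beside 34.2%. Of these 8 calls, 5 were lower and 3 higher in the knockout. In stage order, the share of all genes called lower was 9.97%, 10.2%, 10%, 7.28% and 17.2%, and that called higher was 3.91%, 6.57%, 7.6%, 6.2% and 17%. The median difference over the 8 genes was -0.03 at FGO, 0.07 at MII, -0.04 at L1C, 0.15 at E2C and -0.01 at L2C in log2(FPKM + 1), and that over all genes tested lay between 0 and 0.03. Among 46 tested genes with another Usp symbol, 5 were called at FGO, 4 at MII, 9 at L1C, 7 at E2C and 20 at L2C.

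**Figure D2:**
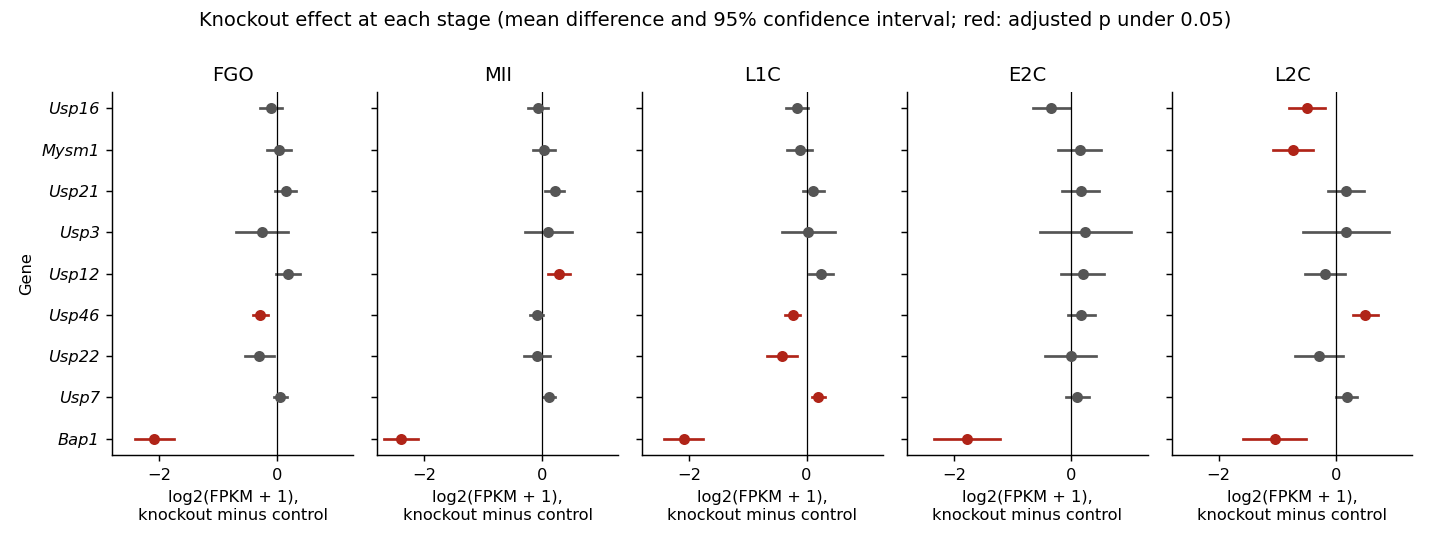
Knockout minus control difference in mean log2(FPKM + 1) (horizontal axis) for 8 deubiquitinases and Bap1 (rows) at 5 stages (panels). Points are estimates, bars are 95% confidence intervals, and red marks an adjusted p under 0.05. Bap1 is far to the left at each stage, and the deubiquitinases lie within 1 log2 unit of 0, with Usp16 and Mysm1 to the left and Usp46 to the right at L2C.

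In oocytes and eggs the differences were small. At FGO, Usp46 was at 83.1, 93.8 and 89.2 FPKM in knockouts against 107 and 109 FPKM in controls, all lower. The mean was 82.2% of control, and it fell by 0.28 (standard error 0.063, adjusted p = 0.00362). The call was lost without control FGO replicate 2 (adjusted p = 0.0566), with median centring (0.101), without stage weights (0.0591) and when FGO was fitted alone (0.0809). At MII, Usp12 was at 3.10, 3.21 and 3.30 FPKM in knockouts against 2.36 and 2.47 FPKM in controls, all higher. It rose by 0.30 (standard error 0.089, adjusted p = 0.0231), and the call was lost without control MII replicate 1 (0.158) or 2 (0.0956), without knockout MII replicate 2 (0.0705), without stage weights (0.288), with the replicate block (0.135) and when MII was fitted alone (0.132). Usp12 was higher in every knockout library than in every control library at FGO and at L1C as well, where the differences of 0.19 and 0.25 missed the threshold (adjusted p = 0.242 and 0.101). At L1C it was called, at 0.42, without control L1C replicate 1 (adjusted p = 0.0247) and, at 0.30, with quantile normalization within a stage (0.0487). Usp21 was likewise all higher at FGO, MII and L1C, by 0.15, 0.22 and 0.12 (adjusted p = 0.291, 0.0566 and 0.426). At MII it was called without knockout MII replicate 1 (adjusted p = 0.0336), without any 1 of control L2C replicates 1 and 2 and knockout L2C replicates 1 and 3 (0.0387 to 0.0477), and with no filter on low values (0.0372), TPM scaling (0.0448) or median centring (0.00834). Knockout libraries lay wholly above the controls for 17.7% of all genes at FGO, 19.8% at MII and 22% at L1C, and wholly below for 24.1% at FGO and 20.9% at L1C.

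At L1C 3 genes changed, each by less than 0.5 log2 units. Usp22 was at 1.54, 1.88 and 1.95 FPKM in knockouts and at 2.699 and 2.726 FPKM in controls, and it fell by 0.42 (standard error 0.121, adjusted p = 0.0206). Usp46 was at 142, 136 and 139 FPKM against 159 and 169 FPKM, and it fell by 0.24 (standard error 0.064, adjusted p = 0.0120). Usp7 was at 107, 100.1 and 107 FPKM against 92.6 and 88.6 FPKM, and it rose by 0.20 (standard error 0.054, adjusted p = 0.0118). In none of the 3 did the genotypes overlap. All 3 calls were lost without control L1C replicate 2 (adjusted p = 0.127, 0.171 and 0.155) and without stage weights (0.142, 0.107 and 0.117). Usp22 was also not called without control L1C replicate 1 (0.105) or knockout L1C replicate 1 (0.0598), with quantile normalization within a stage (0.0530) or when L1C was fitted alone (0.0987), nor Usp46 without knockout L1C replicate 2 (0.0537), with TPM scaling (0.0990) or with median centring (0.0646). Usp7 was not called with the replicate block (0.0728) or when L1C was fitted alone (0.0701). The summed level of the 7 oocyte markers was also higher in knockouts at L1C, at 1242, 1348 and 1729.7 FPKM against 1146 and 1153 FPKM, with knockout replicate 1 the highest, and its part in these differences was not tested. Usp46 and Usp22 had also been lower in every knockout library at FGO, where the estimate for Usp22 was -0.30 (adjusted p = 0.102).

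In early 2-cell embryos Usp16 was at 57.9, 47.4 and 58.0 FPKM in knockouts and at 75.8, 70.4 and 61.3 FPKM in controls. Each knockout library was below each control library, and the estimate was -0.34 (interval -0.66 to -0.02, adjusted p = 0.160). This passed the threshold with quantile normalization within a stage (adjusted p = 0.0393) and without stage weights (0.0170). Usp3 was the other gene whose genotypes did not overlap, at 18.4, 21.5 and 21.5 FPKM in knockouts against 18.1, 18.3 and 15.3 FPKM in controls, with an estimate of 0.24 and an interval from -0.54 to 1.01. Of all genes, 15.1% had every knockout library below and 14.6% every knockout library above the controls at this stage. The early 2-cell libraries spread most, with a stage weight of 0.422 where MII had 1.98, and intervals were widest there.

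Late 2-cell embryos held the clearest differences. In them 2 H2A deubiquitinases were lower in the knockout, and Usp46, 1 of the 2 genes that fell from E2C to L2C in controls, was higher. Whether the Usp46 RNA there was stored or newly made was not tested. Mysm1 was at 6.96, 7.90 and 9.61 FPKM in knockouts and at 12.4 and 15.9 FPKM in controls. Every knockout library was below every control library, the knockout mean was 57.5% of control, and it fell by 0.73 (standard error 0.166, interval -1.08 to -0.39, adjusted p = 0.00171). Usp16 was at 93.1, 89.2 and 86.2 FPKM in knockouts and at 142 and 114 FPKM in controls. The groups did not overlap, the knockout mean was 70.2% of control, and it fell by 0.50 (standard error 0.145, adjusted p = 0.0106). Usp46 was at 49.4, 55.1 and 57.2 FPKM in knockouts and at 36.6 and 38.9 FPKM in controls, again without overlap. Its knockout mean was 143% of control, and it rose by 0.50 (standard error 0.103, interval 0.28 to 0.71, adjusted p = 7.76e-04). Knockout libraries lay wholly below the controls for 27.7% of all genes at this stage and wholly above for 29.1%. Mysm1 was not called without control L2C replicate 2 (adjusted p = 0.0530), and Usp16 was not called without control L2C replicate 1 (0.191), with TPM scaling (0.0669) or with no filter on low values (0.103), whereas Usp46 was called in every alternative run.

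The other genes at L2C did not pass the test. Usp22 was at 25.3, 15.4 and 19.6 FPKM in knockouts and 25.6 and 23.2 FPKM in controls, overlapping, with an estimate of -0.29 and an interval from -0.70 to 0.12. Usp12 was at 4.30, 3.77 and 4.85 FPKM against 5.18 and 4.92 FPKM, all lower, with an estimate of -0.19 (adjusted p = 0.402). Usp7 was at 96.9, 102 and 103 FPKM against 92.6 and 85.3 FPKM, all higher, with an estimate of 0.18 (adjusted p = 0.128). It was called with TPM scaling (adjusted p = 0.0108), a scaling that moved the median knockout difference of all genes at L2C by 0.14. Usp44 was listed at 0.493 and 0.563 FPKM in controls and at 0.223 to 0.282 FPKM in knockouts, too low to test.

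Other measures moved with genotype at L2C. The summed level of 7 oocyte markers was 272 and 278 FPKM in controls and 468 to 545 FPKM in knockouts. That of 5 genes of the 2-cell activation burst was 76.1 and 79.7 FPKM in controls and 217 to 296 FPKM in knockouts, whereas at E2C it had been 173 to 214 FPKM in controls and 74.9 to 144 FPKM in knockouts. The short non-coding model Gm23935 held 20.2% and 23.1% of the summed FPKM in control L2C libraries and 15.3% to 17.3% in knockout ones. The part of these measures in the differences of Mysm1, Usp16 and Usp46 was not tested, and in whole-embryo RNA fewer cells expressing a gene and less RNA per cell cannot be told apart.

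The change from E2C to L2C was set side by side for the genotypes, which use the same control libraries as the comparisons above. The ratio of the L2C mean to the E2C mean was 14.8 in controls and 12.2 in knockouts for Usp22, 1.84 and 1.64 for Usp16, and 2.68 and 1.86 for Usp12. The L2C mean of Usp46 was 37.0% of its E2C mean in controls and 46.7% in knockouts, and that of Usp3 36.7% and 35.4%. For Mysm1 the L2C mean was 162% of the E2C mean in controls and 82.9% of it in knockouts, the only 1 of the 8 genes for which the 2 ratios lay on opposite sides of 100%. The difference between the knockout effects at L2C and E2C was -0.87 for Mysm1 (standard error 0.240, interval -1.37 to -0.37, adjusted p = 0.0139), the only 1 of the 8 genes called in this interaction test, which called 18.9% of all genes. It was not called without control L2C replicate 2 (adjusted p = 0.0926). For the steps before, 0 of the 8 genes were called from FGO to MII (0% of all genes called, 1 of the 8 passing 0.05 before adjustment), 0 from MII to L1C (0.198% of all genes, 0 of the 8 unadjusted) and 0 from L1C to E2C (3.35% of all genes, 1 of the 8 unadjusted), all in limma.

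The summed level of the 9 genes was set beside that of Bap1. It was 336 and 359 FPKM in control and 322 to 334 FPKM in knockout oocytes, 343 and 349 against 340.3 to 366 FPKM at MII, and 380.2 and 392 against 355 to 377 FPKM at L1C. At E2C it was 311 to 326 FPKM in controls and 326 to 338 FPKM in knockouts, and at L2C 308 and 345 against 303 to 317 FPKM. The knockout mean was thus 94.2%, 103%, 95.7%, 104% and 94.6% of the control mean in stage order. Knockout sums lay below the controls at FGO and L1C and above them at E2C, and overlapped at MII and L2C. For scale, the fall in mean Bap1 was between 12.2 and 24.5 FPKM at these stages. The sum of the 3 enzymes best known for H2A, Usp16, Mysm1 and Usp21, was 149 and 179 FPKM in control and 121 to 125 FPKM in knockout L2C embryos. That was 74.9% of the control mean, beside 99.4% at FGO, 102% at MII, 93.9% at L1C and 89.2% at E2C. Most of this sum at L2C was Usp16, with means of 128 FPKM in controls and 89.5 FPKM in knockouts. The Usp21 mean was 113% of control there. Usp46 and Usp7 made up 38.9% of the sum of the 9 genes in control L2C embryos and 50.01% in knockout ones, against 68.9% and 68.8% at FGO. Sums of FPKM over chosen genes were not tested.

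**Figure D3:**
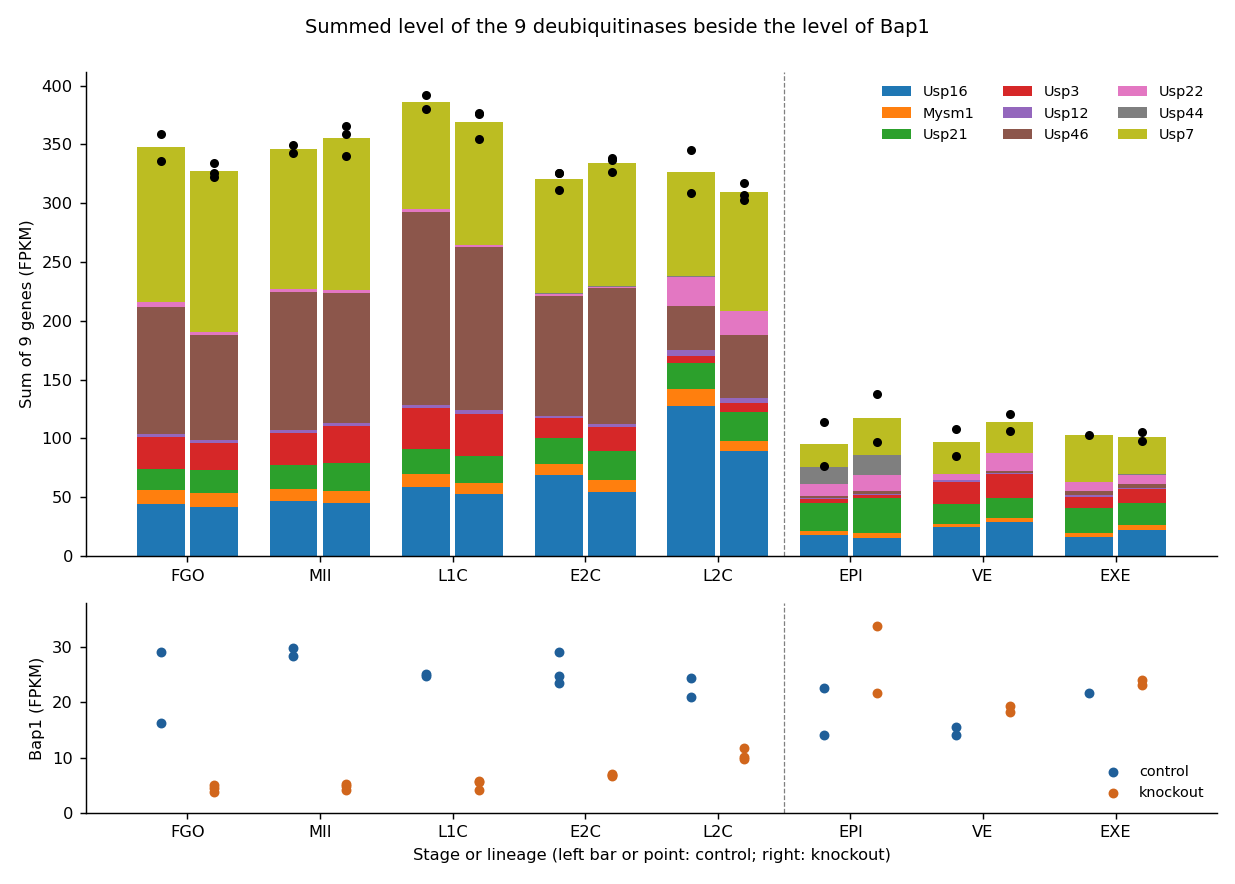
Top, mean level in FPKM of the 9 genes stacked for each stage and lineage, control on the left and knockout on the right, with points for the sum in each library. Bottom, Bap1 in FPKM per library, controls blue and knockouts orange. The dashed line separates total RNA from poly(A) libraries, which were normalised separately; early sums lie between 303 and 392 FPKM in both genotypes, while Bap1 is lower in every early knockout library.

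Genes that work with these enzymes were described as fixed lists. Of 12 cofactors of the members, all tested, 1 was called at FGO, 3 at MII, 2 at L1C, 3 at E2C and 6 at L2C. The share of all genes called was 13.9%, 16.8%, 17.6%, 13.5% and 34.2% in that order. Atxn7l1, a paralogue of the SAGA subunit ATXN7, had the largest fall of the list at MII, with 5.90 ± 0.41 FPKM (SD, n = 2) in controls and 1.56 ± 0.13 FPKM (SD, n = 3) in knockouts, and it fell by 1.43 (limma, adjusted p = 3.85e-07). It was at 7.13 ± 0.44 against 1.89 ± 0.22 FPKM at L1C and at 5.89 ± 1.17 (SD, n = 3) against 1.53 ± 0.45 FPKM at E2C, with estimates of -1.50 and -1.45. Atxn7l3, the SAGA adaptor that activates USP22, was at 24.2 ± 2.4 FPKM in control and 11.2 ± 2.5 FPKM in knockout L2C embryos, and it fell by 1.06 (adjusted p = 3.20e-04), while Usp22 itself did not pass the test there. Wdr20, which activates USP12 and USP46, was at 193 ± 5.6 FPKM in control and 229.5 ± 6.1 FPKM in knockout eggs, a rise of 0.25 (adjusted p = 3.52e-04). Wdr48, its partner in that activation, was at 26.7 ± 0.51 FPKM in control and 34.9 ± 3.7 FPKM in knockout E2C embryos, a rise of 0.37 (adjusted p = 0.04996, just under the threshold). Cetn2, a centrin that binds USP44, rose from 6.01 ± 1.00 to 14.1 ± 1.4 FPKM at L2C.

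The writers of the marks and further erasers were mixed. Counts called in these short lists stand beside 13.9% of all genes at FGO, 16.8% at MII, 17.6% at L1C, 13.5% at E2C and 34.2% at L2C. Of 7 tested H2A ubiquitin ligases, 2 were called at FGO, 3 at MII, 3 at L1C, 0 at E2C (1 with an unadjusted p under 0.05 in limma) and 1 at L2C. Rnf2, the catalytic subunit of Polycomb repressive complex 1, fell from 47.0 ± 2.2 to 39.6 ± 1.9 FPKM at FGO (adjusted p = 0.0398) and from 54.9 ± 2.5 to 45.0 ± 1.7 FPKM at L1C (adjusted p = 0.0143). Trim37, another H2A ligase, rose at FGO, MII and L1C, by 0.34, 0.46 and 0.35. Of 5 H2B ubiquitin ligase genes, 0 were called at FGO, MII and L1C (1 each with an unadjusted p under 0.05), 1 at E2C and 3 at L2C. Rnf20, of the RNF20-RNF40 ligase of H2B, fell from 90.8 ± 6.9 to 58.4 ± 1.9 FPKM at L2C (adjusted p = 0.00157), where Ube2a, its conjugating enzyme, rose from 14.8 ± 0.12 to 26.6 ± 9.0 FPKM (adjusted p = 0.00617). Of 11 other deubiquitinases reported for H2A or H2B, 2 were called at FGO, 1 at MII, 3 at L1C, 1 at E2C and 5 at L2C. Usp48 rose at FGO, MII and L1C by 0.26, 0.31 and 0.34, and Usp10 was higher in the knockout at E2C, 18.2 ± 3.9 against 8.81 ± 1.64 FPKM, and lower at L2C, 9.45 ± 0.34 against 19.3 ± 3.5 FPKM. Of the 11 genes of the BAP1 complex list, which includes Bap1, 4 were called at FGO, 5 at MII, 2 at L1C, 4 at E2C and 4 at L2C, and Kdm1b fell by 0.50 at MII and by 0.58 at E2C and rose by 0.69 at L2C.

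Patterns over the 10 early group means of log2(FPKM + 1) were compared with those of 4976 or 4977 other genes by Pearson correlation, as a description over points that share libraries. These genes had a mean of at least 5 FPKM, group means spanning at least 1 log2 unit and no predicted or clone name. Each r given is the highest of those compared. Usp21, Usp7 and Mysm1 themselves spanned only 0.48, 0.61 and 0.73 log2 units. The gene most like each was Rad54l2 for Usp16 (r = 0.99), Emilin2 for Usp3 (0.99), G3bp1 for Usp22 (0.99) and Dpf3 for Usp46 (1.00 after rounding). It was Fam98b for Usp12 (0.96), Dipk2a for Usp7 (0.94), Zmynd11 for Usp21 (0.92) and Rnf41 for Mysm1 (0.90). Among the members, Usp22 was most like Usp12 (0.88) and least like Usp46 (-0.90), and the best match of Mysm1 and of Usp21 to another member was 0.34 and 0.35.

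At embryonic day 6.5 the 9 genes were compared in the poly(A) libraries, where all 9 passed the filter among 13914 genes. These values were normalised apart from the total RNA table and are not compared with it. The level that set a lineage apart was that of Usp44, an H2B deubiquitinase known from pluripotent stem cells, where it declines on differentiation. It was at 10.4 and 18.4 FPKM in control and 8.13 and 25.6 FPKM in knockout epiblast, at 0.0443 to 0.134 FPKM in the 4 visceral endoderm libraries, and at 0.601 FPKM in control and 0.170 and 0.719 FPKM in knockout extraembryonic ectoderm. No epiblast library overlapped either other lineage. Averaged over genotypes, the level in epiblast was higher by 3.83 in log2(FPKM + 1) than in visceral endoderm (interval 3.04 to 4.61, limma, adjusted p = 2.97e-05), and in extraembryonic ectoderm it was lower than in epiblast, with a difference of -3.34 (adjusted p = 1.44e-04). Pou5f1, an epiblast gene, was at 20.5 FPKM in control and 0.127 and 13.8 FPKM in knockout extraembryonic ectoderm, and whether epiblast RNA in these libraries had a part in their low Usp44 was not tested.

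**Figure D4:**
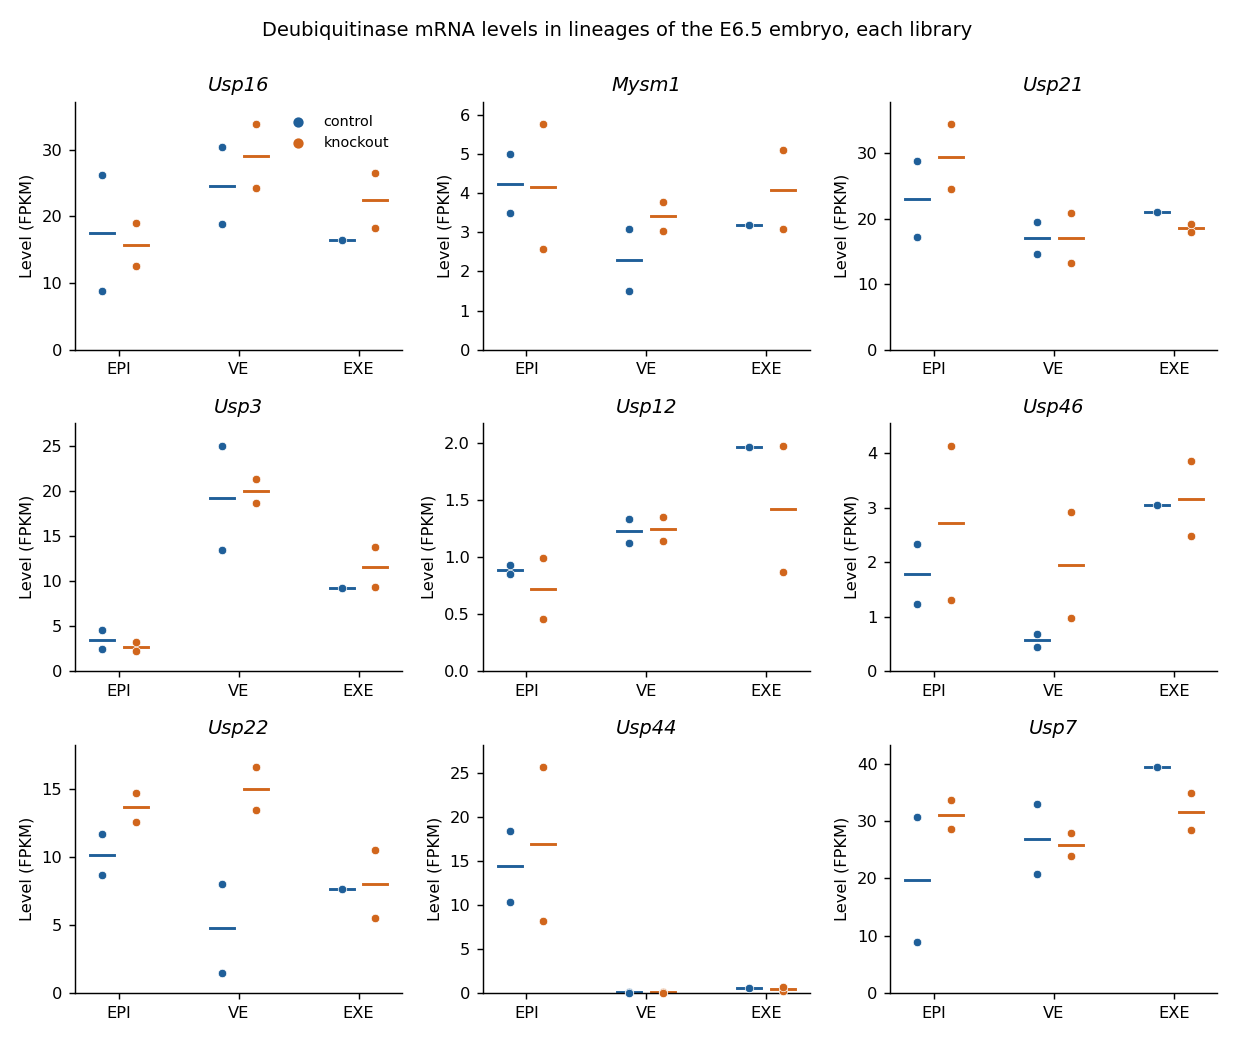
Level in FPKM of each of the 9 genes (1 panel each, linear axis from 0) in 3 lineages at embryonic day 6.5. Points are libraries and short bars are group means, controls blue and knockouts orange, with a single control library in EXE. Usp44 is at 8.13 FPKM or more in epiblast and below 1 FPKM elsewhere, and Usp3 is lowest in epiblast and highest in visceral endoderm.

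Usp3 had the opposite distribution. It was at 2.48 and 4.57 FPKM in control and 2.24 and 3.23 FPKM in knockout epiblast, at 25.0 and 13.5 FPKM in control and 21.3 and 18.7 FPKM in knockout visceral endoderm, and at 9.23 FPKM in control and 9.30 and 13.8 FPKM in knockout extraembryonic ectoderm. All epiblast libraries were below all others. The difference of epiblast from visceral endoderm was -2.32 (adjusted p = 3.60e-04) and that of extraembryonic ectoderm from epiblast was 1.48 (adjusted p = 0.00888), the latter not called without control epiblast replicate 1 (adjusted p = 0.0791), without knockout extraembryonic ectoderm replicate 2 (0.0542) or with no filter on low values (0.0787). Between extraembryonic ectoderm and visceral endoderm, Usp3 differed by -0.84 (adjusted p = 0.0417) and Usp46 by 0.96 (adjusted p = 0.0389). Neither was called without replicate 1 or 2 of knockout extraembryonic ectoderm, without knockout visceral endoderm replicate 2 or without control visceral endoderm replicate 1 (adjusted p between 0.0896 and 0.215). Usp3 was also not called without knockout visceral endoderm replicate 1 (0.135) or either knockout epiblast library (0.0551 and 0.0554), nor Usp46 without control visceral endoderm replicate 2 (0.0647). In each of the 3 lineage comparisons 2 of the 9 genes were called, where the share of all genes called was 35.8% for epiblast against visceral endoderm, 21% for extraembryonic ectoderm against epiblast and 31% for extraembryonic ectoderm against visceral endoderm. The remaining 6 genes were called in none of these comparisons with all libraries, and Usp22 in epiblast against visceral endoderm went from 0.55 (adjusted p = 0.385) to 1.02 (adjusted p = 0.0367) without control visceral endoderm replicate 1. Usp7 lay between 8.82 and 39.4 FPKM and Usp16 between 8.77 and 33.8 FPKM over the 11 libraries, and Usp12 did not exceed 1.98 FPKM.

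No member passed the test between maternal knockout and control in any lineage. In limma 0 of 9 were called in epiblast (0% of all genes called, 0 of 9 with an unadjusted p under 0.05), 0 in visceral endoderm (0.00719% of all genes, 1 of 9 unadjusted) and 0 in extraembryonic ectoderm (0.0216% of all genes, 0 of 9 unadjusted, with the lone control assumed to vary like the other groups). The gene with the unadjusted p was Usp22, at 13.4 and 16.5 FPKM in knockout and 8.01 and 1.45 FPKM in control visceral endoderm, both higher, as for 14.4% of all genes, with an estimate of 1.76 (interval 0.52 to 2.99, unadjusted p = 0.0102, adjusted p = 1). Intervals were wide: for Usp7 in epiblast, at 28.6 and 33.6 FPKM in knockout and 8.82 and 30.7 FPKM in control libraries, it ran from -0.36 to 2.08, and for Usp16 there from -1.25 to 1.28. The test of the difference of the knockout effect between epiblast and visceral endoderm called 0 of the 9 genes (0.00719% of all genes, 0 of 9 unadjusted). Visceral endoderm markers summed to 6.44 to 7.05 FPKM in control epiblast and extraembryonic ectoderm and 0.516 to 1.43 FPKM in the knockout ones, beside 6390.0 FPKM or more in visceral endoderm itself. Within visceral endoderm, markers of other lineages summed higher in knockout than in control libraries, without overlap. Epiblast markers were at 204 to 238 against 142 to 174 FPKM, and extraembryonic ectoderm markers at 20.02 to 28.6 against 12.6 to 13.98 FPKM. Mesoderm genes were at 23.9 to 35.1 against 13.6 to 14.5 FPKM, with 1 of the 3 genes at 1 FPKM or more in knockouts and 1 or 2 in controls. The part of these marker differences in the results, that of Usp22 included, was not tested.

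All 9 genes are protein-coding, and positions are those of GENCODE M21 on mm10 (GRCm38). Usp16 lies on chromosome 16 from 87454703 to 87483517 and Usp7 on the same chromosome from 8689595 to 8792308. Usp12 and Usp46 share chromosome 5, from 146734809 to 146795006 and from 73998453 to 74068431. Usp3 is on chromosome 9 (66514637 to 66593142), Usp21 on chromosome 1 (171281945 to 171287991), Usp22 on chromosome 11 (61151785 to 61175055), Usp44 on chromosome 10 (93831555 to 93858088) and Mysm1 on chromosome 4 (94942040 to 94979100). Between 0% and 3.5% of their exonic words of 50 bases occur in other annotated genes, so near-identical copies touch little of them. Exons of Usp46 overlap the antisense genes Usp46os1 and Usp46os2 over 362 of 7841 exonic bases. Those 2 genes reached at most 0.259 FPKM in total RNA and 0.574 FPKM in poly(A) libraries. Exons of Usp16 overlap the antisense Cct8 over 192 of 9454 bases. Cct8 was at 11.5 to 41.6 FPKM in total RNA and at 445 to 1226 FPKM in poly(A) libraries. Whether counting used the strand is not given, and the part of Cct8 reads in the Usp16 values was not tested.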

How the data were processed

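RNA was measured in 37 mouse libraries, 26 of total RNA (SMART-Seq Stranded kit, per the labels' protocols) and 11 of poly(A) RNA (SMART-Seq mRNA with Nextera XT). The authors deposited FPKM, 1 column per library and 1 table per library type, and every column was matched to 1 sample. Trim Galore 0.6.6, STAR 2.7.9, StringTie 2.1.7 and the build mm10 are named in the submitters' processing notes. The annotation and whether counting used the strand are not given in the sources used here. In the deposited column of control epiblast replicate 1, recorded as an other unit, Gm24888 is listed just below 0; it was set to 0 and the column used as FPKM. No 2 libraries were identical. FPKM does not keep read numbers, so depth is unknown and no counting intervals were given.

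Values were analysed as log2(FPKM + 1), which understates changes of low genes, keeping genes at 1 FPKM or more in at least 2 libraries of a fit. Group means were compared with limma 3.58.1 (R 4.3.3), all 26 total RNA libraries in 1 fit and all 11 poly(A) libraries in another, with 1 variance weight per stage or lineage (arrayWeights), eBayes with trend and Benjamini-Hochberg adjustment over all genes within a contrast, two-sided. The lone control of extraembryonic ectoderm was assumed to vary like the other groups. Lineage contrasts average both genotypes. The scripts were tested on simulated data.

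Groups and replicate numbers came from the sample titles. All members and Bap1 are named throughout. From each other list a knockout contrast could name the gene with the largest rise and the gene with the largest fall among those called, not overlapping between genotypes and at 5 FPKM or more in the higher group. The members and lists were chosen with earlier results of these data known. Symbols and positions were matched by identifier to GENCODE M21, where 54349 of 55401 identifiers had the same version. Alternatives were a pseudocount of 0.1, 2 other filters, TPM scaling, median centring, quantile normalization, no weights, no trend, fits of single stages, a replicate block, a threshold of 0.01 and leaving out each library. Tables and figures were made in Python 3.11.15 (pandas 2.3.3, matplotlib 3.10.9).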

Additional observations from a re-analysis of the deposited data

Results flagged for a closer look

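The knockout effect on Mysm1 differed between the late and the early 2-cell stage, by -0.87 in log2(FPKM + 1) (limma interaction test, adjusted p = 0.0139). At E2C Mysm1 was at 11.6, 9.51 and 8.39 FPKM in knockouts and 9.36, 8.38 and 8.57 FPKM in controls. At L2C it was at 6.96, 7.90 and 9.61 FPKM in knockouts and 12.4 and 15.9 FPKM in controls. Without control L2C replicate 2, the library at 15.9 FPKM, the difference was -0.70 (adjusted p = 0.0926).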

How the results depend on the processing

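Across 5587 recomputed fold changes of the 9 genes and Bap1, 0 called values changed sign, 68 lost the call and 36 gained one, while 129 values that were not called changed sign. The number of members called in the knockout at FGO went from 1 to 0 with median centring, without weights and when fitted alone. At MII it went from 1 to 0 at a threshold of 0.01, with a mean of at least 5 FPKM, without weights, when fitted alone and with the replicate block, to 2 with no filter, and to 3 with TPM scaling or median centring, which added Usp21 and Usp7. At L1C it went from 3 to 0 at a threshold of 0.01 and without weights, and to 1 when fitted alone. At E2C it went from 0 to 1 (Usp16) with quantile normalization and without weights. Between the knockout effects at E2C and L1C it went from 0 to 1 without weights, and between those at L2C and E2C from 1 to 0 at a threshold of 0.01 and to 2 without weights. In controls the FGO to MII count went from 0 to 1 (Usp22) with no filter and without trend, and the L1C to E2C count from 3 to 1 at a threshold of 0.01. The count for extraembryonic ectoderm against epiblast went from 2 to 1 with no filter, and that against visceral endoderm from 2 to 0 at a threshold of 0.01, with no filter and without weights, and to 1 with TPM scaling, median centring, a mean of at least 5 FPKM or only those lineages. Leaving out 1 library at a time, the counts ranged from 0 to 1 at FGO, 0 to 2 at MII, 0 to 3 at L1C, 2 to 3 at L2C, 0 to 1 for the L2C against E2C difference, 0 to 1 from FGO to MII, 1 to 3 from L1C to E2C, 2 to 3 for epiblast against visceral endoderm, 1 to 2 for extraembryonic ectoderm against epiblast and 0 to 2 for it against visceral endoderm. A mean of at least 5 FPKM left Usp12, called at MII, out of the total RNA tests. It likewise left Usp46, called in extraembryonic ectoderm against visceral endoderm, out of the poly(A) tests. The causes of the other changes were not tested.

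Counts over all genes moved further. Genes called in the knockout numbered 2107 at FGO (803 to 2271 over the alternatives), 2545 at MII (895 to 3408), 2675 at L1C (1176 to 2889), 2046 at E2C (1050 to 4407) and 5197 at L2C (3508 to 6419), with the low counts from the stricter filter, the stricter threshold or the fit without weights. In extraembryonic ectoderm the count went from 3 to 2564 with no filter. The share of calls that were higher in the knockout went with median centring from 28.1% to 52.8% at FGO, from 39.2% to 66.3% at MII, from 43.1% to 53.3% at L1C and from 46.0% to 60.7% at E2C, and with TPM scaling to 60.2% at E2C and from 49.8% to 64.0% at L2C. In control embryos median centring moved it from 37.7% to 68.9% from MII to L1C, from 38.4% to 50.4% from L1C to E2C and from 56.5% to 42.2% from E2C to L2C.

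The labels give same-numbered replicates but do not say that they pair. Same-numbered deviations correlated between -0.08 and 0.14 at the early stages and at 0.59 in epiblast and 0.42 in visceral endoderm. With 2 libraries per genotype in a lineage, its 2 pairs must give the same value, so each lineage gives 1 value only. The replicate block within a stage ended 2 calls, Usp12 at MII (adjusted p = 0.135) and Usp7 at L1C (0.0728). It could not be fitted between stages or lineages, where the numbers do not link libraries.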

Other observations

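The balance between the paralogues Usp46 and Usp12, which share their cofactors, differed by genotype at 4 of the 5 early stages, without one common direction. The ratio of Usp46 to Usp12 FPKM was 39.8 and 43.9 in control and 27.6 to 31.3 in knockout oocytes, 45.4 and 51.9 against 32.8 to 36.2 at MII, and 57.7 and 86.0 against 46.2 to 47.3 at L1C, so that at these stages every knockout library was below every control library. At E2C the genotypes overlapped, at 51.7 to 56.7 in controls and 37.1 to 67.6 in knockouts. At L2C the order was the other way round, with 7.07 and 7.92 in controls and 11.5 to 14.6 in knockouts. These are ratios of values given above, were chosen after their values were seen and were not tested.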
